A study of Mus musculus with 6 samples.

Results

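Transforming growth factor-beta (TGF-beta) signalling is described here through 10 genes chosen by name, out of 21603 genes in the files: the 3 ligand genes Tgfb1, Tgfb2 and Tgfb3, the 4 genes of the latent TGF-beta binding protein family, Ltbp1 to Ltbp4, and the 3 receptor genes Tgfbr1, Tgfbr2 and Tgfbr3. The genes were chosen by name, with earlier results of these data known. They were measured in lungs of C57BL/6 mice at postnatal day (P) 8, with the RiboTag method. It adds a haemagglutinin (HA) tag to the ribosomal protein RPL22 in Cre-expressing cells, so that RNA on the ribosomes of these cells can be pulled down with an anti-HA antibody. Cre came from the transgene Pdgfrb(BAC)-CreERT2, which is switched on by tamoxifen and was used to reach pericytes, the cells that wrap around capillaries. The 3 Yap1,Wwtr1 iPCKO samples carried lox/lox alleles of both Yap1 and Wwtr1, the genes of the co-regulators YAP1 and TAZ. The 3 control samples were lox/+ for both genes, and the labels give the groups as Yap1-/-;Wwtr1-/- and Yap1+/-;Wwtr1+/-. Every sample, control or mutant, had the Cre transgene and a lox/+ Rpl22 allele and came from an animal given tamoxifen shortly after birth. The comparison is thus between cells with a single intact copy of each gene and cells with none, and recombination is only as complete as the transgene makes it. The labels name 3 separate mice per group.

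TGF-beta ligands are made as a precursor whose propeptide stays wrapped around the growth factor and keeps it inactive. Latent TGF-beta binding proteins tether this latent complex to the extracellular matrix, and integrins or proteases release the growth factor, which then binds TGFBR2 and TGFBR1 and activates SMAD2 and SMAD3. In the lung, the pathway is known for its roles in alveolar septation, in elastic fibre assembly and in fibrosis.

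Values are RPKM, read counts divided by library depth and by exon length, so levels can be compared between genes per unit of length. Fold changes are differences in mean log2(RPKM + 0.1), iPCKO minus control, tested with limma over 12034 genes, those that reached 1 RPKM in 3 or more samples. The added constant of 0.1 makes the change of low genes look smaller than it is. To pass the thresholds, a gene had to change by more than 0.5 on the log2 scale in either direction, with an adjusted p below 0.01. All 10 genes described here passed the filter on low values. Steps left by whole reads in low values gave library depths between 17.4 M and 34.67 M reads in controls, and between 14.23 M and 39.58 M in iPCKO samples.

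The deleted genes were examined first. Yap1 stood at 13.2, 11.5 and 12.4 RPKM in controls 1 to 3 and at 5.76, 5.83 and 5.25 RPKM in iPCKO samples 1 to 3, a log2 fold change of -1.12 ± 0.0931 (SE; adjusted p = 0.000175). Wwtr1 stood at 71.3, 53.8 and 56.1 RPKM against 63.5, 60.3 and 62.2 RPKM, a log2 fold change of 0.05 ± 0.117 (adjusted p = 0.822). The files hold 1 value per gene, so deleted and remaining exons could not be read apart, and the Wwtr1 value checks nothing about its deletion. Pdgfrb, the defining pericyte marker, was high in every sample, between 1369 and 1666 RPKM in controls and between 1193 and 1447 RPKM in iPCKO samples. Other pericyte markers did change. Of 14 pericyte markers, 3 passed the thresholds as higher and 3 as lower, against 4.11% and 2.68% of all tested genes. Cspg4, Kcnj8 and Abcc9 were higher (log2 fold changes 1.06, 1.03 and 1.15). Notch3, Mcam and Rgs5 were lower (-0.94, -1.04 and -1.15). The other 8, with Pdgfrb among them, did not pass.

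RNA of other cells moved with the groups. For 10 leukocyte markers, summed RPKM was 73.4 to 92.6 in controls and 159 to 292 in iPCKO samples, and 7 of them rose. For 10 neutrophil markers the sums were 87.1 to 129 against 449 to 4949 RPKM, and 6 rose. For 8 platelet markers they were 12.99 to 15.1 against 34.8 to 80.8 RPKM, and 7 rose. Smaller shifts were seen for macrophage markers (17.6 to 28.8 against 35.1 to 68.3 RPKM, with 2 of 7 tested markers higher) and epithelial markers (592 to 678 against 860 to 912 RPKM, with 2 of 11 tested markers higher). Endothelial sums overlapped, at 212 to 223 against 208 to 223 RPKM, and 1 of 10 markers rose. Sums also overlapped for 12 fibroblast markers (1030 to 1353 against 1159 to 1658 RPKM, 1 marker lower), 8 smooth muscle markers (1375 to 1546 against 1508 to 1626 RPKM, 2 higher and 1 lower) and 7 erythrocyte markers (2222 to 2783 against 1370 to 6027 RPKM, none of the 7 called by limma, of which 0 had an unadjusted p below 0.05). Mesothelial sums were 6.65 to 9.17 against 10.8 to 14.0 RPKM, with 1 of 3 tested markers higher, and lymphocyte sums 4.93 to 5.28 against 2.89 to 4.87 RPKM, with 0 of 2 tested markers called and both lower at an unadjusted p below 0.05. No marker of these lists that is in the files was at 0 in every sample. The part of this RNA in the values that follow was not tested. Y-linked transcripts were not balanced between the groups. Their sum was 35.0 RPKM in control 1 and 40.8 RPKM in control 3. It was 0.07 RPKM in control 2 and at most 0.07 RPKM in the iPCKO samples. The labels do not give the sex of each animal, and the study grouped animals without regard to sex. Sex thus goes partly with genotype and cannot be fully told apart from it. The presence of Y-linked transcripts was also used as a term of the model. The iPCKO samples are then set against control 2, the only control that is like them in this. Values with this term are given for Tgfb2, Ltbp2 and Ltbp4, and for pathway genes past the thresholds it is stated which still passed.

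In controls, Ltbp2 was the highest of the 10 genes, at a mean of 409 RPKM, followed by Ltbp4 (98.9 RPKM) and Tgfbr2 (75.3 RPKM). Tgfb2 (48.2 RPKM), Ltbp3 (43.8 RPKM) and Tgfb3 (43.5 RPKM) came next, and neighbours among these 3 overlapped between samples. Tgfbr3 (28.1 RPKM) and Tgfbr1 (14.3 RPKM) lay apart from their neighbours. Tgfb1 (8.997 RPKM) and Ltbp1 (8.41 RPKM) were lowest and overlapped. In iPCKO samples, the first 3 places were unchanged, whereas Tgfb2 was in the eighth place, after the fourth in controls, and overlapped with Ltbp1, the next in order.

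**Figure D1:**
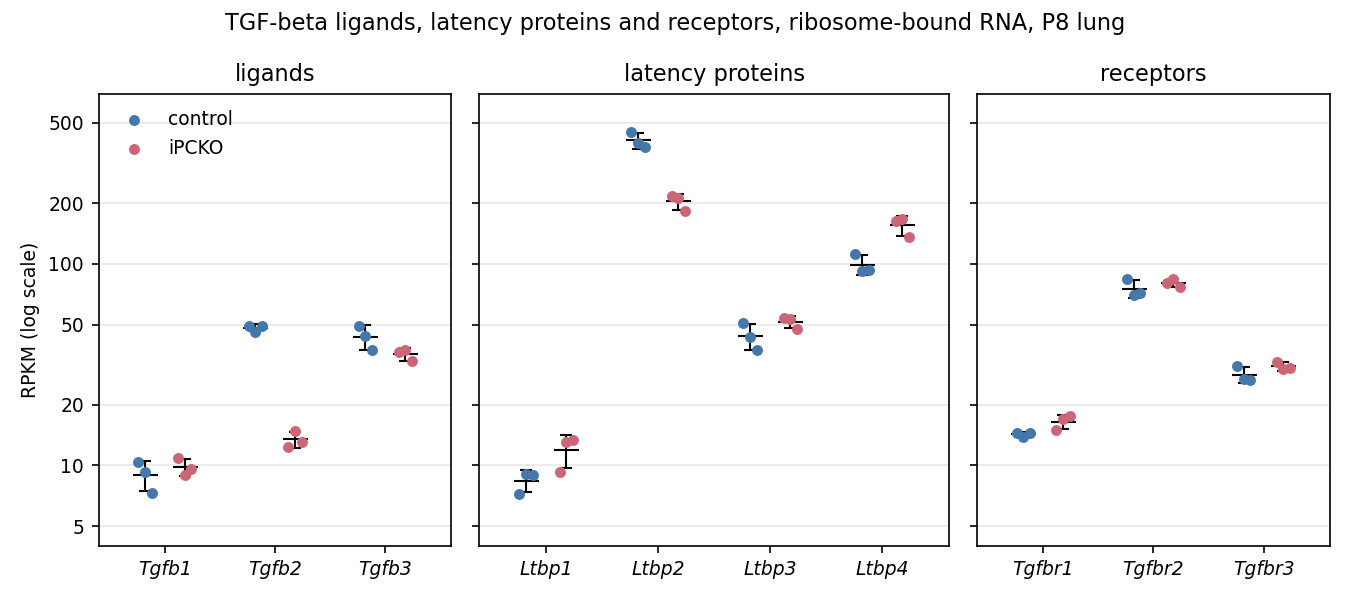
RPKM (log axis) of the 3 ligand, 4 latency protein and 3 receptor genes, with 1 point per sample (blue, 3 controls; red, 3 iPCKO samples) and black bars for the mean ± SD. Tgfb2 fell from 45.9 to 49.5 RPKM in controls to 12.4 to 14.8 RPKM, Ltbp2 fell and Ltbp4 rose without overlap, and the 3 receptor genes did not pass the thresholds.

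Of the 10 genes, 3 passed the thresholds. Tgfb2 and Ltbp2 were lower, and Ltbp4 was higher. Over all tested genes, 6.79% passed, 4.11% as higher and 2.68% as lower in iPCKO. The groups did not overlap for 5 of the 10 genes, with 3 entirely above and 2 entirely below the controls, against 35.5% of all tested genes (18.3% above and 17.1% below). The median log2 fold change of the 10 genes was 0.14, beside -9.7e-05 over all tested genes. The share past the thresholds was above the background, but it cannot be read as a result about these genes. They were chosen with earlier results known, and the study had reported lower Tgfb2 in these data. The set is also too small for a share to carry much. The share without overlap, 5 of 10, was nearer to the background.

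Of the ligands, Tgfb2 passed the thresholds and Tgfb1 and Tgfb3 did not. TGF-beta 2 is unlike the other isoforms in that its propeptide has no Arg-Gly-Asp integrin site. Coding sequences of the GENCODE M21 transcripts on GRCm38 are shown around this site, since it separates the ligand that fell from the 2 that did not pass the thresholds. Capitals mark the in-frame codons for Arg-Gly-Asp, at codons 244 to 246 of Tgfb1 (chr7:25697130-25697162, plus strand) and codons 261 to 263 of Tgfb3 (chr12:86062153-86062185, minus strand).
Tgfb1: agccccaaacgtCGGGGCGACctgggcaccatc
Tgfb3: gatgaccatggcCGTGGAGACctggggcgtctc
Both full Tgfb2 coding sequences, of 414 and 442 codons, held 0 such runs. The presence of these codons is a feature of the genes and no measurement of these samples.

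Tgfb2 (chr1:186622792-186705989, minus strand, GRCm38), the isoform best known from heart and lung development, fell. It was at 49.5, 45.9 and 49.3 RPKM in controls 1 to 3 and at 12.4, 14.8 and 13.1 RPKM in iPCKO samples 1 to 3. All iPCKO samples lay below all controls, and the lowest control was still 3.10 times the highest iPCKO sample. The means were 48.2 ± 2.01 and 13.5 ± 1.25 RPKM (SD, n = 3 each), so that iPCKO samples held on average 27.9% of the control level. On the log2 scale the change was -1.84 ± 0.0933 (SE, 95% interval -2.05 to -1.63, adjusted p = 1.83e-05). Its rank among tested genes dropped from the 92.3rd to the 64.5th percentile. When 1 sample at a time was left out, Tgfb2 passed all 6 times, with values between -1.91 and -1.78. With Y-linked transcripts as a term it was -1.77 (adjusted p = 0.00122). In RNA from a tissue lysate, fewer ribosomes of a cell type and less Tgfb2 RNA per cell cannot be told apart, here and for every gene below.

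Tgfb3 (chr12:86056745-86079041, minus strand), an isoform known for palate and lung development, was close to Tgfb2 in controls, at 49.2, 44.1 and 37.3 RPKM. In iPCKO samples it was at 36.4, 37.5 and 32.8 RPKM. The groups overlapped, since control 3 lay below iPCKO sample 2. The log2 fold change was -0.28 ± 0.116 (95% interval -0.55 to -0.02, adjusted p = 0.146), which did not pass.

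Tgfb1 (chr7:25687002-25705077, plus strand), the isoform that platelets and leukocytes are known to store and release, was the lowest ligand in both groups. It was at 10.4, 9.28 and 7.34 RPKM in controls and at 10.8, 8.95 and 9.65 RPKM in iPCKO samples. The groups overlapped, and the log2 fold change was 0.13 ± 0.137 (95% interval -0.18 to 0.45, adjusted p = 0.562). Without control 3 it was -0.0045, on the other side of 0. Summed leukocyte and platelet markers were higher in every iPCKO sample, as given above, and the part of their RNA in the Tgfb1 values was not tested.

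The make-up of ligand RNA was taken from these levels. The summed RPKM of the 3 ligands was 101 ± 7.62 in controls and 58.9 ± 2.95 in iPCKO samples (SD, n = 3 each), or 58.4% of the control mean. Tgfb2 made up 45.4%, 46.2% and 52.5% of this sum in controls and 20.8%, 24.2% and 23.6% in iPCKO samples. The share of Tgfb3 was 43.1 ± 2.96% and 60.4 ± 1.22%, and that of Tgfb1 8.89 ± 0.942% and 16.7 ± 1.88%. In controls, Tgfb2 and Tgfb3 were near parity, with a ratio of 1.12 ± 0.174, and in iPCKO samples the ratio was 0.378 ± 0.0331. These shares follow from the levels above and were not tested.

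**Figure D2:**
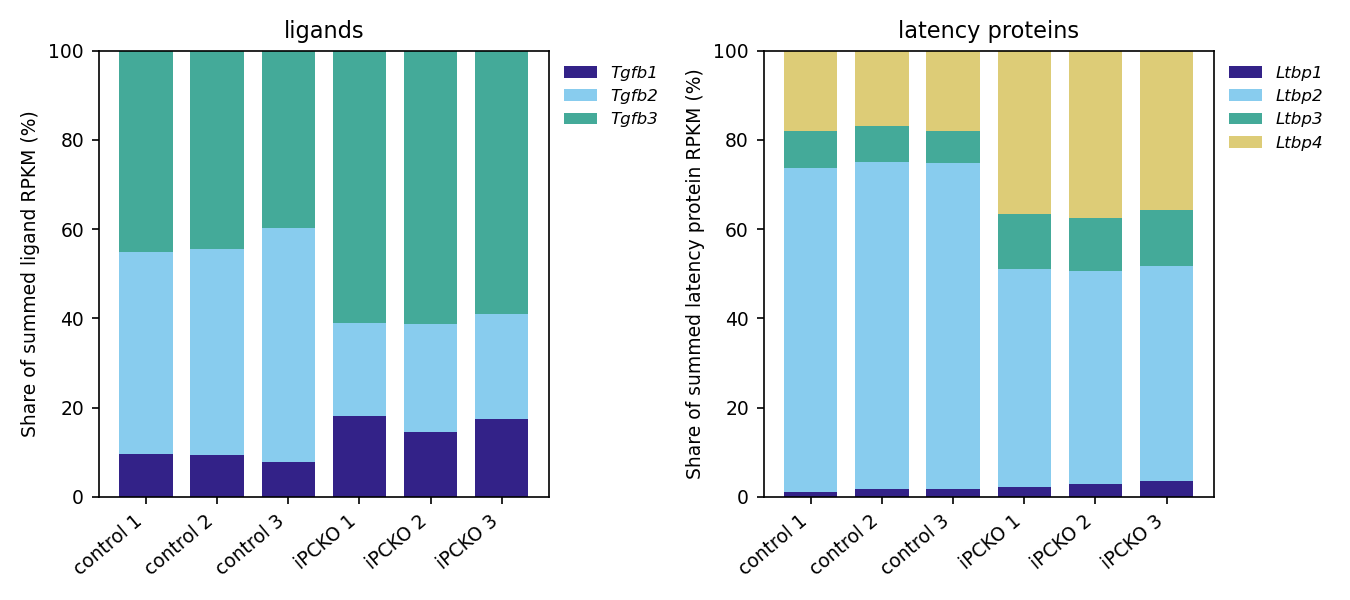
Stacked bars of each gene's share (%) of the summed RPKM of the 3 ligand genes (left) and the 4 latency protein genes (right), 1 bar per sample. The Tgfb2 share is 45.4% to 52.5% in controls and 20.8% to 24.2% in iPCKO samples, and the Ltbp2 share is 72.6% to 73.4% and 47.7% to 49.1%.

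Profiles across the 6 samples were compared after centring each gene's log2(RPKM + 0.1) on its own mean. The genes closest to Tgfb2 were Megf6 (root mean square difference 0.119), Lims2 (0.136), which encodes a focal adhesion adaptor protein, and Nuak1 (0.147), which encodes a kinase of the AMPK-related family. Megf6 was at 21.4, 21.98 and 25.9 RPKM in controls and at 6.59, 7.004 and 7.21 RPKM in iPCKO samples. These profiles are alike mainly in the step between the groups. The closest genes were Ndufb9 (0.0433), Mta1 (0.0448) and Cdk2ap1 (0.0489) for Tgfb1, and Them6 (0.0356), Rita1 (0.0391) and Dmpk (0.0461) for Tgfb3. None of these 6 genes passed the thresholds (adjusted p between 0.121 and 0.731 in limma).

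Among the latency proteins, Ltbp2 and Ltbp4 moved in opposite directions. Ltbp2 (chr12:84783212-84876532, minus strand) is the family member known not to bind latent TGF-beta and to sit on elastic microfibrils. It was at 449.99, 398 and 379.9 RPKM in controls and at 217, 213 and 182 RPKM in iPCKO samples. The groups did not overlap, and the lowest control was 1.75 times the highest iPCKO sample. The means were 409 ± 36.4 and 204 ± 19.1 RPKM (SD, n = 3 each), and the log2 fold change was -1.004 ± 0.123 (95% interval -1.28 to -0.72, adjusted p = 0.00112). It remained among the most abundant RNAs, at the 99.7th percentile in controls and the 98.9th in iPCKO samples. Ltbp2 passed in all 6 fits that left out 1 sample (-1.06 to -0.92). With Y-linked transcripts as a term the value was -0.97 and no longer passed (adjusted p = 0.0342). Of its exonic bases, 9.34% are shared with an antisense gene, D030025P21Rik, that stood at 4.49 to 7.10 RPKM.

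Ltbp4 (chr7:27305136-27337692, minus strand), which binds latent TGF-beta and is required for elastic fibre assembly in the lung, was at 112, 91.8 and 92.9 RPKM in controls. In iPCKO samples it was at 163, 167 and 136 RPKM, all above the controls. The means were 98.9 ± 11.4 and 155 ± 17.1 RPKM (SD, n = 3 each), and the log2 fold change was 0.65 ± 0.124 (95% interval 0.37 to 0.93, adjusted p = 0.00929). This call lay just inside the threshold. It held without control 1 (adjusted p = 0.00942) and was lost without control 2 (0.0394), control 3 (0.0485), iPCKO sample 1 (0.0202), iPCKO sample 2 (0.0420) or iPCKO sample 3 (0.0111), with log2 fold changes between 0.59 and 0.74. With Y-linked transcripts as a term, the value was 0.75 (adjusted p = 0.0735).

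Ltbp1 (chr17:75005568-75392512, plus strand), a widely expressed carrier of latent TGF-beta, was the lowest of the family. It was at 7.19, 9.11 and 8.95 RPKM in controls and at 9.33, 13.1 and 13.4 RPKM in iPCKO samples. All iPCKO samples lay above the controls, sample 1 by a small margin. The log2 fold change was 0.49 ± 0.156 (95% interval 0.13 to 0.84, adjusted p = 0.0716), which did not pass. Without iPCKO sample 1 it was 0.65 and passed (adjusted p = 0.009997).

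Ltbp3 (chr19:5740904-5758532, plus strand), another carrier of latent TGF-beta, was at 50.8, 43.2 and 37.6 RPKM in controls and at 53.8, 53.1 and 47.5 RPKM in iPCKO samples. Control 1 lay within the iPCKO range. The log2 fold change was 0.24 ± 0.121 (95% interval -0.04 to 0.52, adjusted p = 0.225).

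The 4 latency protein genes summed to 560 ± 52.8 RPKM in controls and 423 ± 38.2 RPKM in iPCKO samples, or 75.4% of the control mean. Of the 4 genes, only Ltbp2 had a lower mean in iPCKO samples. The means of the carriers of latent TGF-beta were higher there, at 8.41 and 11.9 RPKM (Ltbp1), 43.8 and 51.5 RPKM (Ltbp3) and 98.9 and 155 RPKM (Ltbp4). Of these carriers, only Ltbp4 passed the thresholds. Within the sum of the 4 genes, the shares varied little between replicates. Ltbp2 held 73.1 ± 0.430% in controls and 48.3 ± 0.702% in iPCKO samples, and Ltbp4 17.6 ± 0.607% and 36.7 ± 0.838%. Shares of the same sum are tied, so a fall of Ltbp2 by itself raises the share of Ltbp4. The shares follow from the levels given and were not tested. The ratio of Ltbp2 to Ltbp4 was 4.02, 4.33 and 4.09 in controls and 1.34, 1.27 and 1.34 in iPCKO samples. In each sample the family was thus dominated by Ltbp2 and Ltbp4, in nearly the same proportions within a group and in different ones between groups.

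None of the 3 receptor genes passed the thresholds in limma. Their unadjusted p-values were 0.0479 (Tgfbr1), 0.348 (Tgfbr2) and 0.159 (Tgfbr3). Tgfbr2 (chr9:116084293-116175360, minus strand), the receptor kinase that binds the ligand first, was at 84.0, 70.3 and 71.5 RPKM in controls and at 79.998, 84.6 and 76.9 RPKM in iPCKO samples. The groups overlapped (log2 fold change 0.10 ± 0.101, 95% interval -0.13 to 0.33, adjusted p = 0.556). In this fit, changes up to 0.33 upward and 0.13 downward on the log2 scale lie within the 95% interval, which is no firm bound.

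Tgfbr1 (chr4:47353222-47414931, plus strand), the kinase that phosphorylates SMAD2 and SMAD3, was at 14.5, 13.9 and 14.5 RPKM in controls and at 15.0, 17.0 and 17.5 RPKM in iPCKO samples. All iPCKO samples lay above the controls, by a small margin for sample 1. The log2 fold change was 0.20 ± 0.0884 (95% interval 0.0023 to 0.41, adjusted p = 0.165). Tgfbr3 (chr5:107106570-107289629, minus strand), also called betaglycan, is a co-receptor that presents ligand and is known to be needed most for TGF-beta 2. It was at 31.1, 26.9 and 26.4 RPKM in controls and at 32.7, 29.9 and 30.5 RPKM in iPCKO samples. Control 1 lay within the iPCKO range (log2 fold change 0.14 ± 0.0936, 95% interval -0.07 to 0.36, adjusted p = 0.344). The receptors summed to 118 ± 10.3 RPKM in controls and 128 ± 3.29 RPKM in iPCKO samples, with Tgfbr2 at 63.9 ± 0.814% and 62.8 ± 1.39% of that sum.

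**Figure D3:**
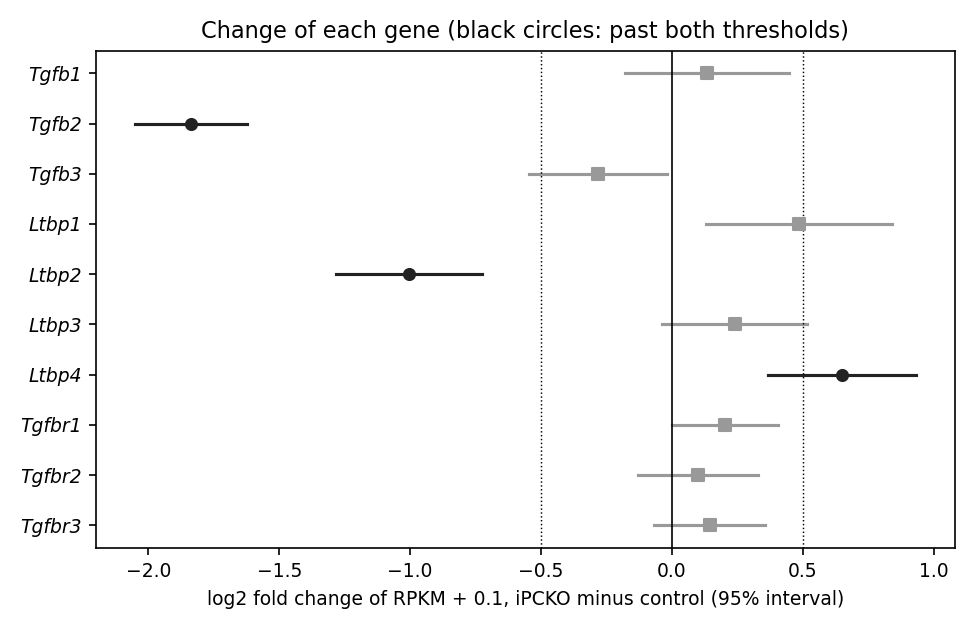
Log2 fold change of RPKM + 0.1, iPCKO minus control, with its 95% interval from limma for each of the 10 genes. Black circles passed both thresholds, grey squares did not, and dotted lines mark -0.5 and 0.5. Tgfb2 (-1.84) and Ltbp2 (-1.004) lie below -0.5 with their whole intervals, Ltbp4 is at 0.65, and the 3 receptors lie between 0.10 and 0.20.

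Sequence upstream of the 2 genes that fell is shown because YAP1 and TAZ act on DNA through TEAD factors. The windows are the 250 bases before the RefSeq start of each gene on GRCm38.p6, read 5′ to 3′ on the gene's strand, for Tgfb2 (chr1:186705990-186706239, minus strand) and Ltbp2 (chr12:84876492-84876741, minus strand). Capitals mark any of the motifs searched on both strands, which were GGAATG (the TEAD core), TGANTCA (AP-1), CAGAC (the SMAD box), GGGCGG (Sp1), TATAAA (the TATA motif), CACGTG (an E-box) and TGACGTCA (the cAMP response element).
Tgfb2: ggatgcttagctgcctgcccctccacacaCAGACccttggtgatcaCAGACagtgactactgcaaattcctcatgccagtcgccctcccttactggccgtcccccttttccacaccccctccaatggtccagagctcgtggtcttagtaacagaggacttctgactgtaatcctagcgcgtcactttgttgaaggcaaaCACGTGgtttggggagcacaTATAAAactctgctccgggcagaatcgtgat
Ltbp2: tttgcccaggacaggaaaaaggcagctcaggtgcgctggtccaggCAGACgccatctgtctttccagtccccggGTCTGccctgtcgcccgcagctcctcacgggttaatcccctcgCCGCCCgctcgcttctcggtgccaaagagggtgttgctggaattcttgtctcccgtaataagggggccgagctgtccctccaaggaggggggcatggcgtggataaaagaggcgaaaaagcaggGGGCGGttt
The bases shown for Tgfb2 held the SMAD box in 2 places, 1 E-box and 1 TATA motif. Those for Ltbp2 held the SMAD box and the Sp1 motif in 2 places each, once per strand. For the counts that follow, windows of 300 bases were searched, which also take in the first bases after the start. Such windows were found for 8 of the 10 genes, 12 windows in all, and those of Tgfb3 and Tgfbr3 were not analysed here. Some genes have more than 1 window, and windows 2 and 3 of Ltbp4 share most of their bases. The counts are thus of windows and not of independent genes. GGAATG was in 0 of the 12 windows and in 14.7% of all 32851 windows of the same length. CAGAC was in 7 of the 12 and in 49.6% of all windows, GGGCGG in 6 of the 12 and 35.7%, and CACGTG in 1 of the 12 and 7.15%. TATAAA was in 1 of the 12 and 13.6% of all windows, TGANTCA in 1 of the 12 and 7.81%, and TGACGTCA in 1 of the 12 and 1.79%. A match of letters is no evidence of binding, and a window without one says nothing of sites elsewhere.

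The rest of the pathway was followed in 4 lists, of 92 genes in all with each counted once (6 genes are in 2 lists). Of the 90 tested, 10 were higher and 3 were lower, and their median log2 fold change was 0.04. Over all tested genes, 4.11% were higher and 2.68% lower (6.79% in all), with a median of -9.7e-05, and the counts of each list below stand beside the same shares. The genes were listed with earlier results known, and no test was made of a list. Of these 13 genes, 7 passed in all 6 fits that left out 1 sample, and 3 (Itgb3, Pcsk6 and Igfbp7) passed with Y-linked transcripts as a term.

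Proteins that hold or release latent TGF-beta made up the first list. Of 25 tested, 4 were higher and 1 was lower (median 0.20). Itgb3, the beta subunit of an integrin that can activate latent TGF-beta, was at 3.91, 4.68 and 4.83 RPKM in controls and 10.7, 11.9 and 13.2 RPKM in iPCKO samples (log2 fold change 1.40 ± 0.118, adjusted p = 0.000186). The groups lay far apart. Itgb3 is also on the platelet list, whose sum was higher in every iPCKO sample, as given above, and the part of platelet RNA in its value was not tested. Pcsk6, a proprotein convertase of the furin family, was at 6.54, 4.83 and 5.17 RPKM against 1.68, 1.54 and 1.31 RPKM, all below the controls (-1.80 ± 0.152, adjusted p = 0.000186). Aspn, a small leucine-rich matrix proteoglycan that binds TGF-beta 1, was at 119, 118 and 106 RPKM against 206, 253 and 192 RPKM (0.91 ± 0.126, adjusted p = 0.00196), a call lost without control 3 (adjusted p = 0.0132). Tgm2, a crosslinking enzyme of latent complexes, was higher by 0.72 ± 0.126 (adjusted p = 0.00641), and Plat, a plasminogen activator, by 0.63 ± 0.101 (adjusted p = 0.00424). Both were sensitive to single samples. Tgm2 was lost without control 1, control 3, iPCKO sample 2 or iPCKO sample 3 (adjusted p up to 0.0308), and Plat without any of the 6 but iPCKO sample 1 (up to 0.0224). By the mean over all 6 samples, the most abundant members that did not pass were Itgb1 (log2 fold change 0.08, adjusted p = 0.677) and Fbn1, the microfibril protein to which latent complexes are tethered (-0.16, adjusted p = 0.429). Itgb8 was under the filter, at 0.615 to 0.938 RPKM.

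Accessory receptors numbered 10, and 1 was higher (median -0.04). Cd109, a membrane-anchored co-receptor known to dampen TGF-beta signalling, was at 1.48, 2.33 and 1.48 RPKM in controls and 4.30, 6.91 and 6.73 RPKM in iPCKO samples. The groups did not overlap (log2 fold change 1.71 ± 0.228, adjusted p = 0.00170), and the adjusted p without control 1 was 0.01002, just outside the threshold. Eng, the co-receptor endoglin, was at 117, 87.9 and 88.6 RPKM against 82.1, 71.9 and 68.2 RPKM, all below the controls, without passing (-0.39 ± 0.133, adjusted p = 0.0869). Vasn, which encodes a TGF-beta binding protein, was at -0.02 (adjusted p = 0.959).

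SMAD proteins and their regulators, 25 in all, are the genes that carry the signal in the cell. None of the 25 passed in limma, and 6 had an unadjusted p below 0.05, 1 higher and 5 lower (median -0.06). The share of all tested genes at this unadjusted p is not given here. All iPCKO samples lay above all controls for 1 of the 25 and below them for 7, against 18.3% and 17.1% of all tested genes. By the mean over all 6 samples, the most abundant were Ski, a repressor of SMAD signalling (log2 fold change -0.23 ± 0.133, adjusted p = 0.295), and Stub1, a ubiquitin ligase (0.25 ± 0.120, adjusted p = 0.212).

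Genes known to respond to TGF-beta in mesenchymal cells were mixed. Of 36 tested, 5 were higher and 2 were lower (median 0.17). Timp3, an inhibitor of matrix metalloproteinases, was at 30.7, 35.9 and 37.5 RPKM in controls and 78.3, 108 and 85.8 RPKM in iPCKO samples (log2 fold change 1.38 ± 0.135, adjusted p = 0.000395), with the lowest iPCKO sample at 2.09 times the highest control. Timp1, of the same family, rose by 1.29 (adjusted p = 0.00149), Igfbp7, a secreted binding protein of insulin-like growth factors, by 1.25 (adjusted p = 0.000271), Cnn1, the contractile protein calponin, by 1.11 (adjusted p = 0.000293), and Junb, a subunit of AP-1, by 1.002 (adjusted p = 0.00117). Eln, the gene of elastin, the core protein of elastic fibres, went the other way. It was at 1505, 2000.7 and 1602 RPKM in controls and at 784, 834 and 558 RPKM in iPCKO samples, with no overlap (-1.24 ± 0.200, adjusted p = 0.00422). The study found no significant change of tropoelastin protein by staining or immunoblot in such mutants at a slightly earlier age. That measure is of protein in lung tissue, and the values here are of ribosome-bound RNA. Snai2, a transcription factor of mesenchymal identity, fell by 0.83 on the log2 scale (adjusted p = 0.00876). Neither of the 2 lower calls was stable. Eln was lost without any single control or iPCKO sample 3 (adjusted p up to 0.0193), and Snai2 in all 6 such fits (up to 0.0402). With Y-linked transcripts as a term, Timp3 (adjusted p = 0.0148), Timp1 (0.0328), Cnn1 (0.0116) and Junb (0.0392) did not pass. Eln (0.0290) and Snai2 (0.0614) did not pass either, and Igfbp7 did. By the mean over all 6 samples, the most abundant genes that did not pass were Postn (0.46 ± 0.148, adjusted p = 0.0753, all iPCKO samples above the controls) and Col4a1 (0.06 ± 0.167, adjusted p = 0.853). Comp was under the filter.

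**Figure D4:**
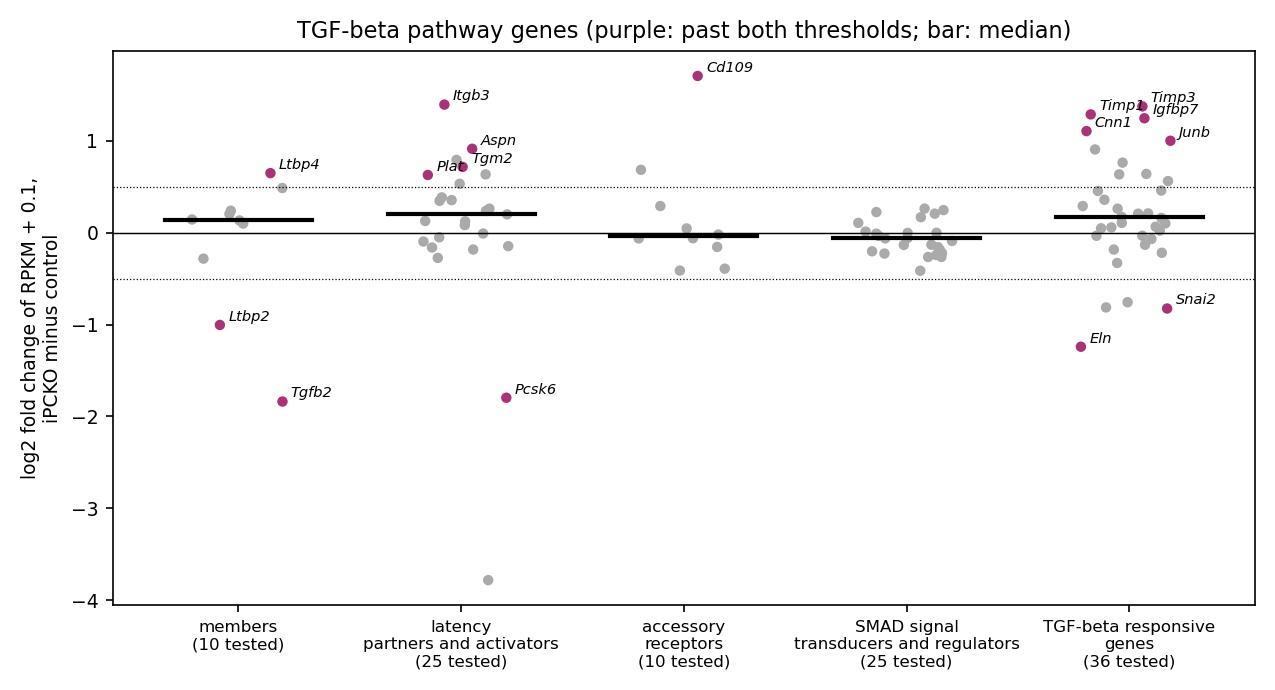
Log2 fold change of RPKM + 0.1, iPCKO minus control, for the 10 genes described here and for the tested genes of 4 pathway lists, 1 point per gene. Purple points with names passed the thresholds, black bars are medians and dotted lines mark -0.5 and 0.5. No gene of the SMAD list passed, and the lowest grey point is Fmod, whose controls differed widely.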

How the data were processed

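RNA was prepared from ribosomes of 3 control and 3 iPCKO lungs, and libraries were stranded. Per the study's methods, the authors used TopHat for alignment to the mm10 assembly (GRCm38), HTSeq 0.6.1 for counts of reads on genes, and DESeq2 for tests. The authors deposited RPKM per Ensembl gene, 21603 genes per sample. The exon length behind RPKM and the strand setting of the counting are not given in the sources used here. Symbols for 21375 genes and all gene coordinates came from GENCODE M21.

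RPKM are not counts, so limma 3.58.1 (R 4.3.3) was run on log2(RPKM + 0.1) with an intensity trend, without further scaling, on genes that reached 1 RPKM in 3 or more samples. P-values were Benjamini-Hochberg adjusted over the 12034 genes. The thresholds are those of the study. An exact permutation test of 3 samples against 3 cannot go below p = 0.1 and was not used. Each simulated data set had 200 changed genes. Of genes changed by 0.5, 1 and 2 on the log2 scale, 6.5%, 97.5% and 100% were recovered, with 1, 4 and 1 false calls. Both were counted at an adjusted p below 0.01 alone, without the limit on fold change. Every simulated gene had the same spread between samples beyond counting noise, and no cell mixture was simulated. These rates therefore do not describe the calls on the real data. In the simulation, most genes changed by 0.5 were missed.

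Depth was read from single-transcript genes at 10 reads or fewer, of which 75.2% to 77.1% lay within 0.02 reads of a whole number. It was not used to rebuild counts.

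The 10 genes, the pathway and marker lists and the tests were chosen with earlier results of these data known. Of the pathway lists, up to 6 genes past the thresholds per direction were named, with the 2 tested genes of highest mean RPKM over all samples among those that did not pass, and for each ligand the 3 genes of closest profile. Muc16 and Ahsp matched no gene. Alternatives were pseudocounts of 1 and 0.01, no filter, median-ratio or quantile scaling, no trend, sample weights, an adjusted p of 0.05, the replicate number as a block and each sample left out. Y-linked transcripts as a covariate was chosen after seeing the data. Figures used Python 3.11.15 with matplotlib 3.10.9. Input RNA was not analysed here.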

Additional observations from a re-analysis of the deposited data

How the results depend on the processing

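The 10 genes were examined under 16 alternatives. The adjusted p of 0.05 used the main fit, so its values could neither change direction nor drop below the thresholds. The replicate block left the log2 fold changes of the 10 genes the same, so their direction was fixed there too. Of the 160 values, 148 kept their direction and their side of the thresholds, 9 dropped below them, 2 passed only under the alternative and 1 changed sign (Tgfb1, between -0.0045 without control 3 and 0.24 without control 1). Tgfb2 stayed past the thresholds throughout (-1.91 to -1.72, adjusted p up to 0.00122), and Ltbp2 did except with Y-linked transcripts as a covariate (-0.97, adjusted p = 0.0342). Ltbp4 was also lost without the filter on low values (adjusted p = 0.0177), without the trend (0.0130) and with Y-linked transcripts (0.0735), and Ltbp1 passed with sample weights (0.53, adjusted p = 0.00236). Of the 10 genes, 1 passed with Y-linked transcripts in the model and 2 or 3 when 1 sample was left out. The count of all genes, 817, was 1590 with sample weights, 1313 at an adjusted p below 0.05, 124 with Y-linked transcripts, and between 382 (without control 3) and 899 (without iPCKO sample 1) with 1 sample left out. The 13 pathway genes became 23 with sample weights, 3 with Y-linked transcripts, and between 8 (without control 3) and 14 with 1 sample left out. The causes were not tested, beyond the fewer samples of those fits. Both other scalings left the median of all genes within 0.1 of 0. Samples of the same replicate number correlated by 0.022 to 0.238 in their deviations and those of different numbers by -0.298 to 0.273, and control 2 correlated best with iPCKO sample 3, so the numbers were not taken as pairs. With the replicate number as a block, 922 genes, 16 pathway genes and the same 3 of the 10 genes passed.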

Other observations

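Fmod and Thbs1, chosen here after their values were seen, are on the list of proteins that hold or release latent TGF-beta and did not pass the thresholds. Fmod, which encodes the matrix proteoglycan fibromodulin, was at 91.4, 5.05 and 98.2 RPKM in controls 1 to 3 and at 2.33, 2.42 and 2.80 RPKM in iPCKO samples 1 to 3. Control 2, the control without Y-linked transcripts, lay near the iPCKO samples, and the log2 fold change was -3.78 ± 0.963 (SE, limma adjusted p = 0.0318). Thbs1, which encodes thrombospondin-1, an activator of latent TGF-beta that is abundant in platelets, was at 84.0, 127 and 105 RPKM in controls and at 151, 184 and 211 RPKM in iPCKO samples (0.79 ± 0.174, adjusted p = 0.0174). All iPCKO samples lay above all controls, as they did for 18.3% of all tested genes and for 7 of 8 platelet markers. The same held for 9 of 10 leukocyte, 10 of 10 neutrophil, 7 of 11 tested epithelial and 2 of 10 endothelial markers. The part of platelet RNA in the Thbs1 value was not tested.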
